A study of Homo sapiens with 4 samples.

Results

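The genes described here are PBRM1, ARID1A, SMARCA4, BAP1, SETD2, TSC1, TSC2 and MTOR, a set of 8 genes from pathways that are often mutated in clear cell renal cell carcinoma. They are given by name, not by a threshold on a measured value, and all 8 were found among the 56753 loci of the deposited table. 7 of them have a locus of their own, while the SMARCA4 locus also carries the name uc_338, so its value sums whatever was assigned to both names. The cells were 786-O, an established human cell line derived from this carcinoma, and they lack functional VHL. One group of 2 libraries came from 786-O cells stably transduced with PRDM16 lentivirus, and the other group of 2 libraries from 786-O cells stably transduced with a control vector. The question was how PRDM16, a zinc finger regulator of transcription, affects the transcriptome of these cells when it is overexpressed from the virus.

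PBRM1, ARID1A and SMARCA4 encode parts of SWI/SNF complexes, which use the energy of ATP to slide or evict nucleosomes. BAP1 encodes a deubiquitinase that removes ubiquitin from histone H2A, and SETD2 encodes the methyltransferase that places the trimethyl mark on lysine 36 of histone H3 along transcribed genes. PBRM1, BAP1 and SETD2 lie on the short arm of chromosome 3, as VHL does, and loss of that arm is the typical first lesion of this carcinoma. TSC1 and TSC2 form the complex that switches off the small GTPase RHEB and so restrains the kinase mTOR. MTOR itself encodes that kinase and is activated, not lost, in renal carcinoma, so it belongs to the pathway without being a tumour suppressor.

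No change with PRDM16 passed the test for any of the 8 genes. Their limma adjusted p over all 13246 tested loci lay between 0.699 and 0.961, and 0 of 8 passed the threshold of 0.05, as against 0.0226% of all tested loci. At an unadjusted limma p under 0.05 the count was also 0 of 8, where 6.12% of all tested loci lay under it. Mean levels were higher in PRDM16 cells for 3 genes and lower for 5, and their median log2 change was -0.026, beside 0.0040 over all tested loci. Each change is PRDM16 minus control vector on the scale of log2(FPKM + 1), where FPKM counts sequenced fragments relative to transcript length in kilobases and to library size.

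The libraries set how finely this could be read. PRDM16 itself was at 1226 and 1146 FPKM in the PRDM16 libraries, against 0.0157 and 0.234 FPKM in the control vector libraries. It was 1 of 3 loci called, and the others, AL132768.1 and AC012168.1, carry only clone names and are named here after their values were seen. AL132768.1 had 239 and 125.5 FPKM in the PRDM16 libraries and was listed at 0 in both control vector libraries. AC012168.1 was listed at 0 in both PRDM16 libraries and had 132 and 72.7 FPKM in the control vector libraries. Judged from the steps between the lowest values, PRDM16 replicates 1 and 2 were sequenced 1.26 and 1.17 times, and control vector replicate 2 was sequenced 1.39 times, as deeply as control vector replicate 1. How many reads lie behind a value is unknown. The typical locus differed by 0.098 on the log2 scale between the PRDM16 libraries and by 0.190 between the control vector libraries. Control vector replicate 2 was the lowest of the 4 libraries at 38.7% of tested loci and the highest at 33.9%. Whether the replicates were separate cultures is not stated in the labels. The p-values therefore measure no more than the spread between the libraries of a group, and that spread may be technical. The renal factor PAX8 was at 190.3 and 169 FPKM in the PRDM16 libraries and at 202 and 208.5 FPKM in the control vector libraries. Among the other renal and carcinoma markers, VIM, KRT8, CDH2, MME and the loci of KRT18 and NNMT were at 15.6 FPKM or more in every library. PAX2 was between 4.62 and 5.37 FPKM, CDH16 between 0.926 and 1.86 FPKM and CA9 between 0.394 and 0.629 FPKM. The summed level of 6 endothelial markers was between 0.342 and 0.436 FPKM in every library, and that of 5 glomerular and distal nephron markers between 0.0309 and 0.190 FPKM. The sum of 6 fibroblast and muscle markers was 4.33 and 4.77 FPKM in the PRDM16 libraries and 4.63 and 4.53 FPKM in the control vector libraries, mostly from LUM and COL1A1, with DCN listed at 0. These sums use only loci naming 1 gene. Left out was the locus of PDGFRA, which also names FIP1L1 and cannot be divided among its names. It had 38.3 and 39.6 FPKM in the PRDM16 libraries and 32.4 and 31.1 FPKM in the control vector libraries. The leukocyte marker CD74 was at 9.73 and 10.7 FPKM in the PRDM16 libraries and 10.8 and 17.3 FPKM in the control vector libraries, highest in control vector replicate 2, while CD3E was listed at 0 in all 4. The locus of the leukocyte marker CD68 also names EIF4A1 and SENP3, and its value cannot be divided among them. It had 473 and 477 FPKM in the PRDM16 libraries and 448 and 362 FPKM in the control vector libraries.

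**Figure D1:**
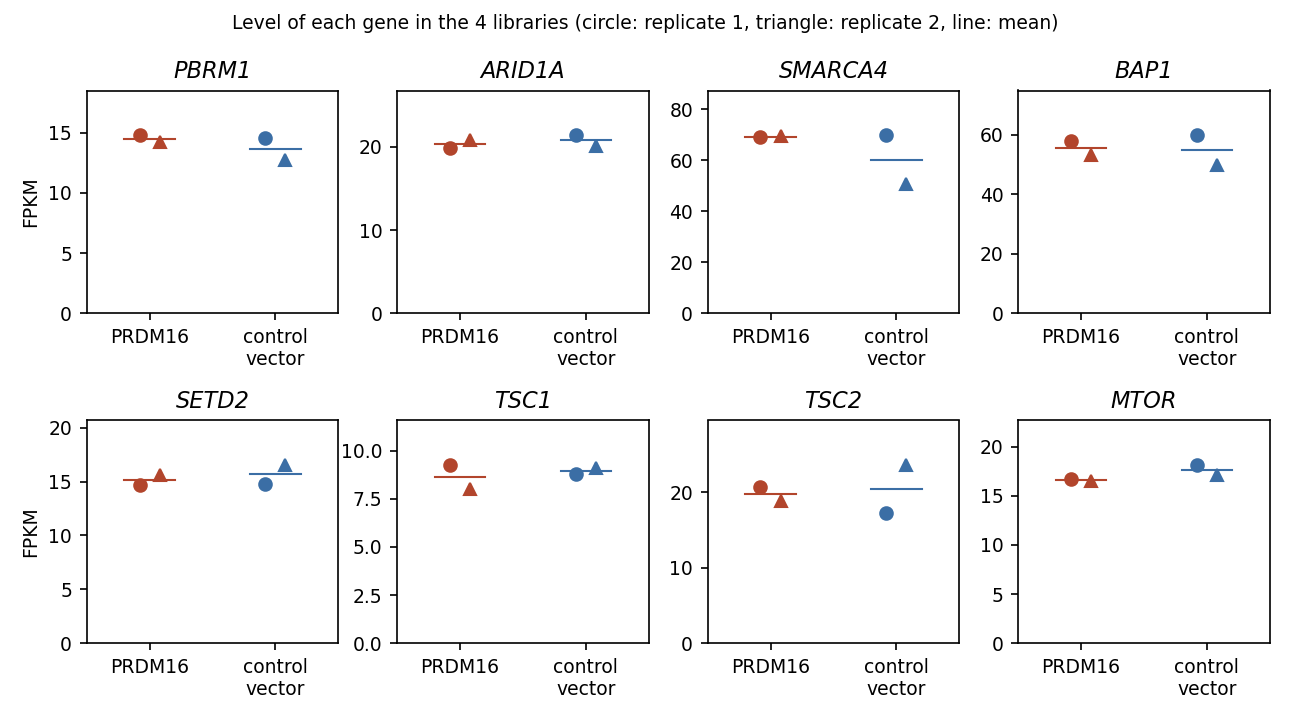
FPKM of each of the 8 genes (vertical axes, linear from 0) in the PRDM16 libraries (left, red) and the control vector libraries (right, blue), with replicate 1 as a circle, replicate 2 as a triangle and the group mean as a line. The groups overlap for every gene except MTOR, and the widest gap between replicates is in the control vector for SMARCA4, TSC2 and BAP1.

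The promoters of PBRM1 and TSC2 are shown because each is shared with a gene that starts on the opposite strand, and those neighbours were measured in the same libraries. The sequences are from RefSeq on GRCh38.p14, 250 bases before to 50 bases after a start site, on the strand of PBRM1 or TSC2. Capitals mark the bases between the start site of the gene and that of its neighbour, both included.
PBRM1, chr3:52685864-52686163, minus strand: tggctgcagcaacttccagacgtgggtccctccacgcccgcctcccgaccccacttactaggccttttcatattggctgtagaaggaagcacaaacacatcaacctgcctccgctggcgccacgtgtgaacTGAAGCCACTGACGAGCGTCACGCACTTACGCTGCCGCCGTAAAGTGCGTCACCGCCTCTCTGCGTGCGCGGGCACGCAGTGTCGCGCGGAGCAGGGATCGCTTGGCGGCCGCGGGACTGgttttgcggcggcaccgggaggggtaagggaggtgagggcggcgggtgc
TSC2, chr16:2047735-2048034, plus strand: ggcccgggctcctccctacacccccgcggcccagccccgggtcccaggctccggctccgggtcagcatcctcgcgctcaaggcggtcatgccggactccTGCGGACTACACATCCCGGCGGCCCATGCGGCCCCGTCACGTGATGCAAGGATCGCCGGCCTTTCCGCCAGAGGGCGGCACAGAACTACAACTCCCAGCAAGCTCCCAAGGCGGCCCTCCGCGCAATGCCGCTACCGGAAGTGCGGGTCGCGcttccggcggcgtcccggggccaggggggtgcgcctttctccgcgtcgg
For PBRM1 the capitals run over 120 bases to the farther of the start sites of GNL3 in the table, and the nearer start site lies 7 bases away. For TSC2 they run over 152 bases to the start site of NTHL1. RefSeq promoters were found for 7 of the 8 genes, in 10 windows of 300 bases, with 5 to 55 CpG dinucleotides each against a median of 14 over 35116 promoters.

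A few motifs were searched on both strands of these windows. CACGTG, the E-box, was in the printed PBRM1 and TSC2 windows, 2 of the 10, and in 7.3% of all promoters. ACGTG, the core that HIF binds, is part of the E-box sequence and was found in the same 2 windows, against 21.4% of all promoters. The PBRM1 window also holds an ACGTG outside its E-box, near the start of the printed sequence. AAGATAA, from the motif known for the zinc fingers of EVI1, the closest relative of PRDM16, was in 0 of 10 windows and in 3.3% of all promoters. CCGGAAG, a core bound by ETS factors, was in 3 of the 10 windows, those of TSC1 and TSC2, and in 10.3% of all promoters. The TSC2 windows overlap. The printed window holds the motif on each strand, near the end of the capitals and directly after them. Both matches lie in the bases that the TSC2 windows share, so these windows are not separate finds.

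PBRM1 encodes BAF180, the bromodomain subunit that defines the PBAF form of SWI/SNF. It lies on chromosome 3 at 52545352 to 52685917 on the minus strand of hg38. Its level was 14.8 and 14.2 FPKM in the PRDM16 libraries, against 14.6 and 12.7 FPKM in the control vector libraries. Only control vector replicate 2 stood below the rest, and the groups overlapped. The means were 14.5 ± 0.430 and 13.7 ± 1.29 FPKM (SD, n = 2 each), with a log2 change of 0.08 (SE 0.11, 95% interval -0.20 to 0.37, limma adjusted p = 0.784).

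ARID1A encodes a DNA-binding subunit of the canonical BAF form, at 26693236 to 26782110 of chromosome 1, plus strand. It had 19.9 and 20.9 FPKM in the PRDM16 libraries and 21.4 and 20.1 FPKM in the control vector libraries. Control vector replicate 1 was the highest and PRDM16 replicate 1 the lowest, and the groups overlapped. The means were 20.4 ± 0.677 and 20.8 ± 0.925 FPKM (SD, n = 2 each), with a log2 change of -0.02 (SE 0.093, 95% interval -0.27 to 0.22, limma adjusted p = 0.936).

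SMARCA4 encodes BRG1, an ATPase that drives these complexes, at 10960825 to 11079426 of chromosome 19, plus strand. It had 69.0 and 69.5 FPKM in the PRDM16 libraries, against 69.8 and 50.6 FPKM in the control vector libraries. Control vector replicate 1 was the highest of the 4 and control vector replicate 2 the lowest, at 72.5% of replicate 1. The means were 69.2 ± 0.376 FPKM in PRDM16 cells and 60.2 ± 13.6 FPKM in control vector cells (SD, n = 2 each). The log2 change of 0.22 (SE 0.17, 95% interval -0.24 to 0.67, limma adjusted p = 0.699) was the highest of the 8. It came to -0.01 when control vector replicate 2 was left out, and to 0.45 when replicate 1 was left out instead. Of all tested loci, 71.4% had a smaller absolute change.

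BAP1, on chromosome 3 at 52401013 to 52410350 on the minus strand, had 57.7 and 53.0 FPKM in the PRDM16 libraries, against 59.9 and 49.7 FPKM in the control vector libraries. The control vector libraries enclosed the PRDM16 libraries. The means were 55.4 ± 3.34 and 54.8 ± 7.23 FPKM (SD, n = 2 each), with a log2 change of 0.02 (SE 0.13, 95% interval -0.31 to 0.35, limma adjusted p = 0.961), which was -0.019 after quantile normalization.

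SETD2, on chromosome 3 at 47016429 to 47163967 on the minus strand, had 14.7 and 15.7 FPKM in the PRDM16 libraries and 14.8 and 16.5 FPKM in the control vector libraries. Control vector replicate 2 was the highest of the 4, PRDM16 replicate 1 the lowest, and the groups overlapped. Its log2 change was -0.04 (SE 0.10, 95% interval -0.32 to 0.23, limma adjusted p = 0.899).

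TSC1, which encodes hamartin, lies on chromosome 9 at 132891348 to 132946874 on the minus strand. It had 9.25 and 8.02 FPKM in the PRDM16 libraries, against 8.81 and 9.12 FPKM in the control vector libraries. Here the PRDM16 libraries enclosed the control vector libraries, and the log2 change was -0.05 (SE 0.11, 95% interval -0.34 to 0.24, limma adjusted p = 0.880).

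TSC2, which encodes tuberin, the GTPase-activating partner of hamartin, lies at 2047465 to 2089487 of chromosome 16, plus strand. It had 20.7 and 18.8 FPKM in the PRDM16 libraries, against 17.2 and 23.6 FPKM in the control vector libraries. The control vector libraries enclosed the PRDM16 libraries, with replicate 2 the highest of the 4 and replicate 1 the lowest. The log2 change of -0.03 (SE 0.17, 95% interval -0.48 to 0.42, limma adjusted p = 0.960) came to 0.19 when control vector replicate 2 was left out, and to -0.24 when replicate 1 was left out instead.

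MTOR, on chromosome 1 at 11106535 to 11262507 on the minus strand, had 16.7 and 16.5 FPKM in the PRDM16 libraries and 18.1 and 17.1 FPKM in the control vector libraries. It was the only one of the 8 genes whose groups did not overlap, with both PRDM16 libraries below both control vector libraries, as at 20.3% of all tested loci. The means were 16.6 ± 0.149 and 17.6 ± 0.702 FPKM (SD, n = 2 each), with a log2 change of -0.08 (SE 0.091, 95% interval -0.32 to 0.16, limma adjusted p = 0.759). No gene of the 8 had both PRDM16 libraries above both control vector libraries, where 21.1% of all tested loci did.

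**Figure D2:**
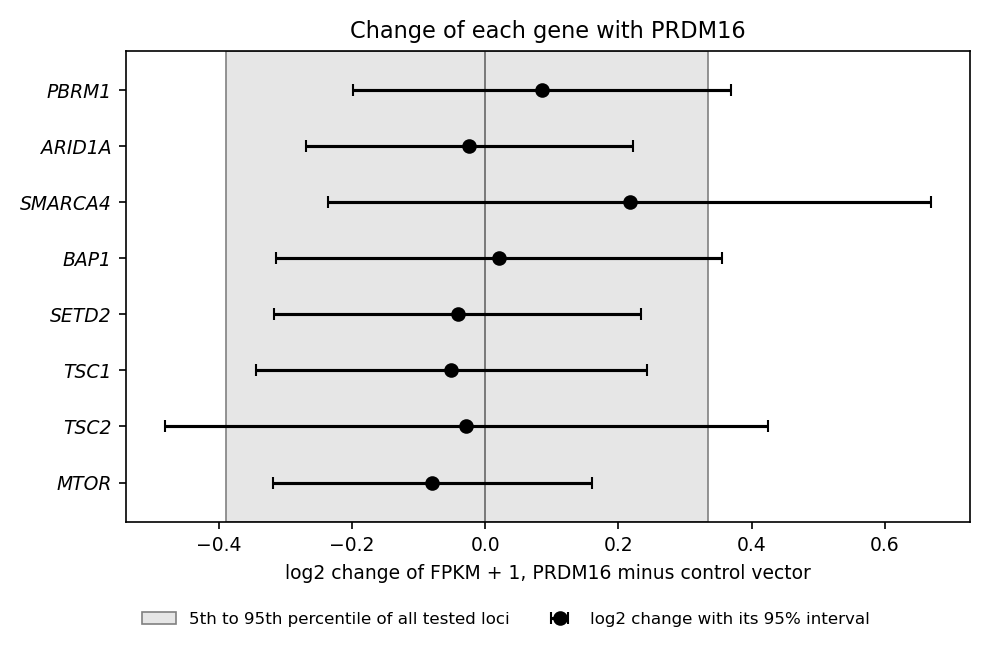
Log2 change of FPKM + 1, PRDM16 minus control vector (horizontal axis), for each of the 8 genes, with its unadjusted 95% interval from limma as a bar and the 5th to 95th percentile of all tested loci as the grey band, from -0.39 to 0.34. Every interval includes 0, and those of SMARCA4 and TSC2 are the widest.

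With 2 libraries in each group there are 3 ways to split the 4 libraries, so an exact two-sided permutation test cannot give a p below 0.333 for a single gene, and none is given. The intervals show what sizes of change the data leave for each gene. They reach furthest for SMARCA4 upward, to 0.67, and for TSC2 downward, to -0.48, and for MTOR they do not go above 0.16. The median absolute log2 gap of the 8 genes was 0.075 between the PRDM16 libraries and 0.166 between the control vector libraries, beside the 0.098 and 0.190 of all tested loci.

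The order of levels was the same in all 4 libraries at its ends. SMARCA4 was the highest and BAP1 the next in all 4 libraries, and TSC1 was the lowest in all 4. The step from SMARCA4 to BAP1 was small in control vector replicate 2, at 50.6 and 49.7 FPKM. ARID1A, TSC2 and MTOR held ranks 3 to 5 in changing order, and PBRM1 and SETD2 held ranks 6 and 7, with PBRM1 ahead only in PRDM16 replicate 1. By mean level over the 4 libraries, TSC1 stood at percentile 39.8 and SMARCA4 at percentile 85.6 of the tested loci.

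Ratios within a library do not depend on how libraries were scaled, and FPKM are already divided by length. SMARCA4 was 2.25 and 2.16 times the level of its paralogue SMARCA2, the other ATPase of the complex, in the PRDM16 libraries, against 2.07 and 1.94 times in the control vector libraries. Both PRDM16 ratios were above both control vector ratios, and the nearest libraries of the groups were at 2.16 and 2.07. How often ratios of other gene pairs separate the groups in this way was not tested. ARID1A stood at 1.07 and 1.23 times its paralogue ARID1B in the PRDM16 libraries and at 1.13 and 0.994 times in the control vector libraries. TSC2 was 2.24 and 2.35 times TSC1 in the PRDM16 libraries and 1.96 and 2.59 times TSC1 in the control vector libraries, so the balance of the complex overlapped between groups. PBRM1 was 3.67 and 2.84 times ARID2, another subunit particular to PBAF, in the PRDM16 libraries, against 3.43 and 3.49 times in the control vector libraries. RPTOR, which defines mTORC1, was 2.72 and 3.69 times RICTOR, which defines mTORC2, in the PRDM16 libraries, against 2.93 and 2.79 times in the control vector libraries, and the groups overlapped for both of these ratios.

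**Figure D3:**
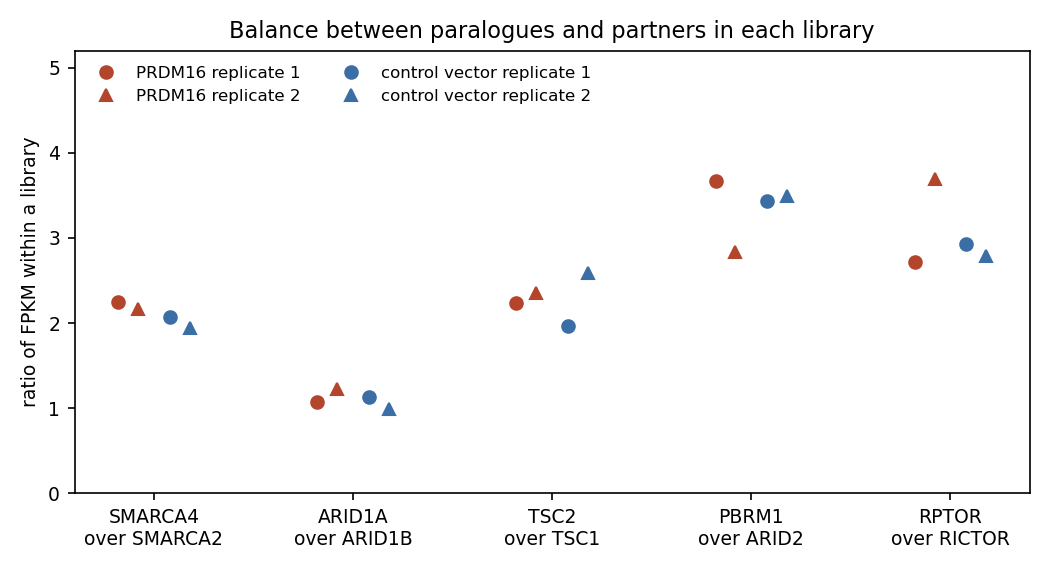
Ratio of FPKM between paralogues or partners within each library (vertical axis, linear from 0), with PRDM16 libraries in red left of control vector libraries in blue, and replicate 1 as a circle and replicate 2 as a triangle. The groups overlap for every ratio except SMARCA4 over SMARCA2, where all 4 libraries lie between 1.94 and 2.25.

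Other SWI/SNF subunits did not pass the test either. Of 24 genes in this list, 20 had a locus of their own and 19 of those were tested, with 0 called, 10 higher and 9 lower in mean, and a median log2 change of 0.05. Both PRDM16 libraries were above the control vector at 4 and below it at 7 of the 19, against 21.1% above and 20.3% below over all tested loci. The smallest p values belonged to SMARCD3, an accessory subunit, at 8.19 and 9.44 FPKM in the PRDM16 libraries against 11.7 and 12.0 FPKM in the control vector libraries, and to BCL7A, another accessory subunit. BCL7A had 4.53 and 4.29 FPKM in the PRDM16 libraries against 5.62 and 6.27 FPKM in the control vector libraries. Neither passed over all loci (limma adjusted p = 0.689 for both). The median of the list was -0.09 without control vector replicate 2 and -0.014 without PRDM16 replicate 1. The core scaffold gene SMARCC1 had 36.9 and 33.3 FPKM in the PRDM16 libraries and 36 and 30.1 FPKM in the control vector libraries, which overlapped. Its paralogue SMARCC2 had 22.9 and 21.6 FPKM in the PRDM16 libraries and 26.1 and 24.5 FPKM in the control vector libraries, without overlap.

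ARID1B had 18.7 and 17.0 FPKM in the PRDM16 libraries, against 19.0 and 20.2 FPKM in the control vector libraries. Among the subunits particular to PBAF, which carry PBRM1, ARID2 had 4.04 and 4.998 FPKM in the PRDM16 libraries and 4.25 and 3.65 FPKM in the control vector libraries, which overlapped. BRD7 was lower in both PRDM16 libraries, at 9.82 and 9.20 FPKM, than in the control vector libraries, at 10.6 and 10.7 FPKM. PHF10, in a locus with a second name, had 14.2 and 15.0 FPKM in the PRDM16 libraries and 15.4 and 12.9 FPKM in the control vector libraries. SMARCA2 had 30.6 and 32.1 FPKM in the PRDM16 libraries and 33.8 and 26.0 FPKM in the control vector libraries. Its lowest library was control vector replicate 2, as for SMARCA4, and that library was the lowest for 10 of the 19 subunits, or 52.6%, against 38.7% of all tested loci. The core subunit gene SMARCB1 was listed at 0 in all 4 libraries. A 0 in this table need not mean that a gene is silent. The 4 loci found by the names of mitochondrially encoded protein genes are listed at 0 too, and the reason was not tested.

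Partners of BAP1 in its histone deubiquitinase complex had lower means in PRDM16 cells at most loci, without a call. Of 11 genes, 10 were tested, with 0 called, 2 higher and 8 lower in mean and a median log2 change of -0.11, where 6529 of all 13246 tested loci had a lower mean. Both PRDM16 libraries were below the control vector at 4 of the 10, and at 20.3% of all tested loci. PRDM16 replicate 2 was the lowest library at 6 of the 10, against 3748 of all 13246, and the median was -0.053 without it. ASXL1, a scaffold that activates BAP1, had 32.1 and 32.7 FPKM in the PRDM16 libraries and 36.3 and 32.4 FPKM in the control vector libraries. Its paralogue ASXL2 had 14.3 and 9.20 FPKM in the PRDM16 libraries and 14.9 and 14.6 FPKM in the control vector libraries, where PRDM16 replicate 2 was the library apart, and ASXL3 was listed at 0 in all 4. The methyl-CpG-binding family member MBD5 had the smallest p, at 15.3 and 14.0 FPKM in the PRDM16 libraries against 17.4 and 19.1 FPKM in the control vector libraries, and did not pass (limma adjusted p = 0.689). OGT, which attaches N-acetylglucosamine to proteins, had 36.6 and 30.8 FPKM in the PRDM16 libraries and 38.8 and 40.5 FPKM in the control vector libraries. The transcription factor genes FOXK1 and FOXK2 had log2 changes of -0.04 and -0.0090. The coregulator gene HCFC1 had 24.3 and 26.9 FPKM in the PRDM16 libraries and 26.7 and 19.7 FPKM in the control vector libraries, which overlapped.

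Genes that write, erase or read methylation of lysine 36 of histone H3, the residue that SETD2 modifies, had higher and lower means in about equal number. Of 18 genes, 16 were tested in loci of their own, with 0 called, 9 higher and 7 lower in mean and a median log2 change of 0.02, which was -0.05 without control vector replicate 2 and -0.03 without PRDM16 replicate 2. With all libraries it was -0.018 among loci with a mean of at least 5 FPKM and 0.00089 after quantile normalization. NSD1, a dimethyltransferase for this residue, had 15.8 and 14.0 FPKM in the PRDM16 libraries against 18.7 and 18.04 FPKM in the control vector libraries (log2 change -0.29, SE 0.10), and did not pass (limma adjusted p = 0.689). Its relatives NSD2 and NSD3, listed in the table under the older names WHSC1 and WHSC1L1, had log2 changes of 0.09 and -0.06. ASH1L, another such enzyme in a locus with a second name, had 5.25 and 5.81 FPKM in the PRDM16 libraries and 6.15 and 6.75 FPKM in the control vector libraries. The demethylase gene KDM2A had 21.1 and 21.1 FPKM in the PRDM16 libraries, against 19.1 and 18.2 FPKM in the control vector libraries, with no overlap and no call (limma adjusted p = 0.689). The demethylase gene KDM4A had 15.9 and 14.0 FPKM in the PRDM16 libraries and 15.6 and 20.7 FPKM in the control vector libraries, which overlapped.

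The partners of MTOR in its complexes and the effectors below it were tested as 14 single-gene loci of 18 genes, with 0 called, 6 higher and 8 lower in mean and a median log2 change of -0.017, between -0.023 and -0.0065 with 1 library left out. RPTOR had 19.7 and 19.6 FPKM in the PRDM16 libraries and 20.0 and 19.8 FPKM in the control vector libraries. RICTOR had 7.24 and 5.32 FPKM in the PRDM16 libraries and 6.80 and 7.11 FPKM in the control vector libraries, and MLST8, the subunit common to both complexes, had 37.0 and 35.8 FPKM in the PRDM16 libraries and 38.9 and 44.7 FPKM in the control vector libraries. DEPTOR, an inhibitor of mTOR, was near the filter, at 1.27 and 0.912 FPKM in the PRDM16 libraries and 1.203 and 0.726 FPKM in the control vector libraries. The groups overlapped for RICTOR and DEPTOR and not for RPTOR or MLST8. In the list, both PRDM16 libraries were above the control vector at 3 and below it at 3 of the 14, against 21.1% above and 20.3% below over all tested loci.

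Among the effectors, RPS6, a ribosomal protein phosphorylated by the S6 kinases, had the smallest p of a single-gene locus, at 876.5 and 943 FPKM in the PRDM16 libraries against 818 and 797 FPKM in the control vector libraries (limma adjusted p = 0.689). Ribosomal protein genes have processed pseudogenes that can share their reads, so this value is uncertain. LPIN1, a lipid phosphatase controlled by mTORC1, had 17.0 and 16.6 FPKM in the PRDM16 libraries and 18.4 and 23.6 FPKM in the control vector libraries. EIF4EBP1, the translation repressor that mTORC1 inactivates, had 104.9 and 98.3 FPKM in the PRDM16 libraries, inside the 87.2 and 132 FPKM of the control vector libraries. The S6 kinase gene RPS6KB1, in a locus with other names, had a log2 change of 0.0050. EIF4E, the cap-binding factor that EIF4EBP1 holds, was singled out after its values were seen. Its locus, which also carries AC019131.1 and TBCAP3, had 11.7 and 10.2 FPKM in the PRDM16 libraries against 7.31 and 6.604 FPKM in the control vector libraries. Both PRDM16 libraries were above both control vector libraries, its log2 change of 0.58 (SE 0.12) missed the threshold (limma adjusted p = 0.689), and the value cannot be divided among the names.

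Upstream of mTOR, 20 single-gene loci of 29 genes were tested, with 0 called, 9 higher and 11 lower in mean and a median log2 change of -0.032, between -0.064 and -0.023 with 1 library left out. RHEB, the GTPase that TSC2 switches off, had 45.4 and 43.4 FPKM in the PRDM16 libraries against 36.5 and 37.1 FPKM in the control vector libraries. Its libraries did not overlap, and its log2 change of 0.26 (SE 0.087) did not pass over all loci (limma adjusted p = 0.689). TBC1D7, the further subunit of the TSC complex, in a locus with a second name, had 26.1 and 28.0 FPKM in the PRDM16 libraries and 28.7 and 31.6 FPKM in the control vector libraries. NPRL3, a subunit of the GATOR complex that holds mTORC1 off when amino acids are short, had 39.4 and 35.5 FPKM in the PRDM16 libraries and 39.9 and 44.2 FPKM in the control vector libraries.

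DDIT4 and SESN2, which restrain mTORC1 under stress, scattered widely between replicates. DDIT4 had 406 and 274 FPKM in the PRDM16 libraries and 349 and 636 FPKM in the control vector libraries, while SESN2 had 20.5 and 12.2 FPKM in the PRDM16 libraries and 15.2 and 31.2 FPKM in the control vector libraries. For both genes control vector replicate 2 was the highest and PRDM16 replicate 2 the lowest, and the groups overlapped. FLCN, a regulator of mTORC1 at the lysosome, in a locus with other names, had 31.1 and 27.7 FPKM in the PRDM16 libraries and 29.5 and 34.5 FPKM in the control vector libraries.

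Lysosomal and autophagy genes driven by TFEB, a factor that mTORC1 keeps out of the nucleus, were tested as 14 single-gene loci of 19 genes. Of the 14, 0 were called, 5 were higher and 9 lower in mean, and the median log2 change was -0.08. Both PRDM16 libraries were below the control vector at 5 and above it at 2 of the 14, against 20.3% below and 21.1% above over all tested loci. The lysosomal protease gene CTSB had 195.7 and 189 FPKM in the PRDM16 libraries against 218 and 253 FPKM in the control vector libraries. Its groups did not overlap, and it was not called (limma adjusted p = 0.689). Control vector replicate 2 was the highest library for 11 of the 14, or 78.6%, against 33.9% of all tested loci, and its part in the lower mean was not tested. The median of the list was -0.22 without control vector replicate 1, -0.02 without control vector replicate 2 and -0.03 without PRDM16 replicate 2.

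Other genes mutated in renal carcinoma were tested as 17 single-gene loci of 21 genes, with 0 called, 7 higher and 10 lower in mean and a median log2 change of -0.017, between -0.060 and 0.00011 with 1 library left out. VHL had 23.8 and 23.7 FPKM in the PRDM16 libraries and 22.0 and 25.2 FPKM in the control vector libraries. KDM5C, a histone demethylase gene, had 25.5 and 23.1 FPKM in the PRDM16 libraries and 25.0 and 27.7 FPKM in the control vector libraries. The groups overlapped for both genes. ATM, a kinase of the DNA damage response, had the smallest p, at 10.0 and 10.1 FPKM in the PRDM16 libraries against 11.0 and 14.5 FPKM in the control vector libraries (limma adjusted p = 0.689). CDKN2A was at 0.135 FPKM in PRDM16 replicate 1 and listed at 0 in the other libraries.

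**Figure D4:**
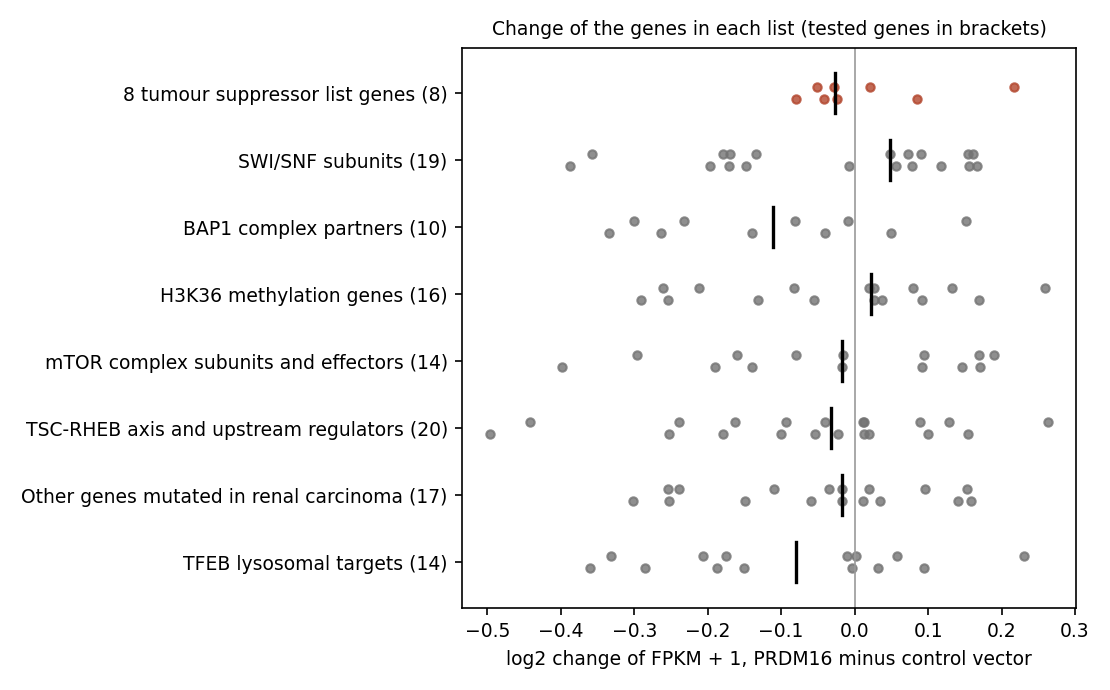
Log2 change of FPKM + 1, PRDM16 minus control vector (horizontal axis), of tested genes (points) in each list (rows), with the median of the list as a black bar. The related lists show only genes with a locus of their own, so EIF4E is not drawn. The 8 genes described here (top row, red) lie between -0.08 and 0.22, and no point in any row passed the test.

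The genes beside PBRM1, BAP1 and SETD2 on chromosome 3 gave a view of the same region. The nearest tested protein-coding genes with a locus of their own were NBEAL2 and KIF9 around SETD2, GLYCTK and PHF7 around BAP1, and SMIM4 and GLT8D1 around PBRM1. Their log2 changes were -0.11, -0.08, -0.10, -0.30, 0.08 and -0.18 in that order, and 0 of 6 was called (limma adjusted p from 0.690 to 0.845). With 1 library left out they ran from -0.20 to -0.024 for NBEAL2, -0.23 to 0.063 for KIF9, -0.14 to -0.061 for GLYCTK, -0.56 to -0.036 for PHF7, -0.040 to 0.20 for SMIM4 and -0.33 to -0.029 for GLT8D1. GLT8D1, a glycosyltransferase gene, had 29.5 and 27.6 FPKM in the PRDM16 libraries and 29.1 and 36.1 FPKM in the control vector libraries. GLYCTK, which encodes glycerate kinase, was the only one of the 6 whose groups did not overlap, at 3.12 and 3.18 FPKM in the PRDM16 libraries against 3.59 and 3.33 FPKM in the control vector libraries. Over all tested loci, both PRDM16 libraries were below the control vector at 20.3% and above it at 21.1%.

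Genes that start beside PBRM1, TSC2 and BAP1 on the opposite strand were compared with them library by library. GNL3, which encodes the nucleolar GTPase nucleostemin and starts at the PBRM1 promoter printed above, had 82.5 and 81.0 FPKM in the PRDM16 libraries against 71.6 and 62.8 FPKM in the control vector libraries. Its locus also carries the small nucleolar RNAs SNORD19 and SNORD19B. Both PRDM16 libraries were above both control vector libraries, and the log2 change of 0.28 (SE 0.10) missed the threshold (limma adjusted p = 0.689), while the groups overlapped for PBRM1. NTHL1, a DNA repair glycosylase gene that starts at the TSC2 promoter, had 14.1 and 15.0 FPKM in the PRDM16 libraries and 13.5 and 13.1 FPKM in the control vector libraries, where control vector replicate 2 was the lowest for NTHL1 and the highest for TSC2. PHF7, whose annotated start is 307 bases from that of BAP1, had 2.93 and 2.63 FPKM in the PRDM16 libraries and 2.87 and 4.57 FPKM in the control vector libraries. Control vector replicate 2 was the highest for PHF7 and the lowest for BAP1. In the annotation PBRM1 overlaps GNL3 by 4762 bases and TSC2 overlaps NTHL1 by 402 bases, SMIM4 also overlaps PBRM1, and since it is not stated that strand was used, reads in those overlaps cannot be told apart.

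**Figure D5:**
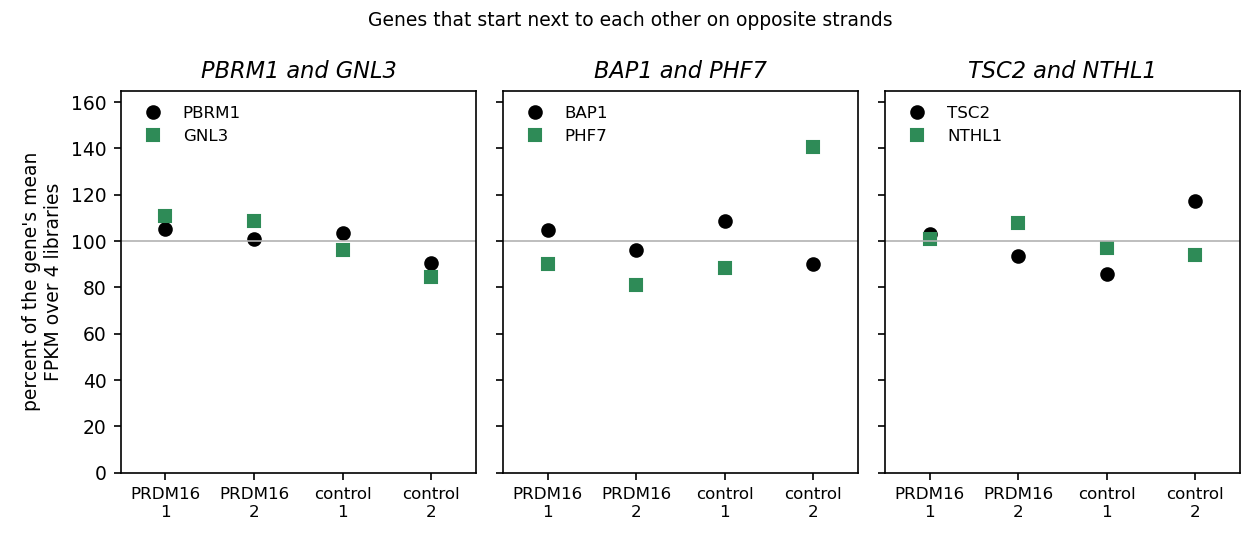
Level of PBRM1, BAP1 and TSC2 (black circles) and of the gene starting beside each on the opposite strand (green squares), as percent of that gene's mean FPKM over the 4 libraries (vertical axis, linear from 0), by library. In control vector replicate 2, PBRM1 and GNL3 are both at their lowest, while BAP1 and PHF7, and TSC2 and NTHL1, lie on opposite sides of 100.

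The likeness of patterns was measured as the Euclidean distance between centred log2(FPKM + 1) values over the 4 libraries, among 136 other genes of the set and its related lists. The closest gene was KDM6A for ARID1A (distance 0.026), NSD3 for TSC1 (0.036), UBE2O for PBRM1 (0.039) and STAG2 for SETD2 (0.044). It was FNIP2 for MTOR (0.051), SQSTM1 for TSC2 (0.056), PRKAA1 for BAP1 (0.058) and EIF4EBP2 for SMARCA4 (0.088). None of the 8 had another of the 8 as its closest gene. With 4 libraries and such small changes, these distances describe the libraries at hand.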

How the data were processed

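RNA-seq of total RNA gave 4 libraries, 2 from cells with PRDM16 and 2 from cells with control vector, grouped by their titles. Per the submitters' processing notes, TopHat2 2.1.0, Cufflinks 2.2.1, Cuffdiff and Trim Galore were used with the build hg38. The annotation, filters, scaling between libraries and strand setting were not stated in the labels or notes. The deposited values were taken as FPKM, although the header names no unit: they hold fractions, and a library's total is 556213 to 574003, unlike counts or TPM. Depth is known only relative to control vector replicate 1.

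For loci averaging at least 1 FPKM across all 4 libraries, limma 3.58.1 in R 4.3.3 was run on log2(FPKM + 1), with a variance trend, two-sided, with Benjamini-Hochberg adjustment over all 13246 tested loci and a threshold of 0.05. This scale understates changes of low genes. Related lists used loci naming 1 gene, the 8 genes any locus. Of single locus names, 60.2% are in GENCODE 29, the source of coordinates and overlaps. Tables and plots used Python 3.11.15, numpy 2.4.6, pandas 2.3.3 and matplotlib 3.10.9. The test was checked on simulated data.

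The genes and lists were chosen with earlier results of these data known. Named were PRDM16, the 8 genes, partners fixed by role, the 2 smallest p of each list, neighbours on chromosome 3 and closest patterns; EIF4E, the opposite-strand genes and the ratio of RPTOR to RICTOR were added after values were seen. Some genes the rule names are not reported here. Alternatives were other pseudocounts, filters, scalings and variance models, a replicate block and leaving out each library.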

Additional observations from a re-analysis of the deposited data

How the results depend on the processing

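No alternative with all 4 libraries brought any of the 8 genes past the threshold. Of 119 results for them under an alternative, 107 kept the direction and 12 turned. Other filters, other variance models and the replicate block leave a gene's estimate unchanged. The direction under those settings was thus fixed in advance, and the 107 do not measure stability. With all 4 libraries, only BAP1 turned, to -0.019 after quantile normalization, as did VHL (-0.00053) and RPS6KB1 (-0.0038) beside it. Leaving out 1 library gave log2 changes from -0.0055 to 0.17 for PBRM1, -0.11 to 0.15 for BAP1, -0.12 to 0.034 for SETD2, -0.067 to 0.019 for ARID1A, -0.14 to 0.041 for TSC1, -0.24 to 0.19 for TSC2 and -0.012 to 0.45 for SMARCA4. MTOR stayed below 0 in each. The median of the 8 lay between -0.020 and 0.039, the upper value without PRDM16 replicate 2. Among related genes the same gave -0.071 to 0.16 for PHF10, -0.10 to 0.26 for SMARCA2, -0.036 to 0.22 for SMARCC1, -0.077 to 0.059 for FOXK2, -0.058 to 0.36 for HCFC1, -0.14 to 0.026 for NSD3, -0.33 to 0.052 for RICTOR and -0.082 to 0.27 for DEPTOR. It gave -0.043 to 0.053 for RPS6KB1, -0.38 to 0.22 for EIF4EBP1, -0.94 to 0.054 for SESN2, -0.083 to 0.11 for VHL, -0.23 to 0.063 for KIF9 and -0.040 to 0.20 for SMIM4. The number of loci called was 5 with a pseudocount of 0.1 or with robust variances, 6 without a variance trend, 1 without the filter or at an adjusted p under 0.01, and 16 to 39 with 1 library left out, 2 of them shared with the 3 in each case. The cause was not tested. Same-numbered libraries did not deviate together over the tested loci as a whole (correlation -0.058). Whether they shared a culture or a batch was not tested. The replicate block gave 5 called loci, and none of the 8 genes passed (smallest limma adjusted p = 0.917).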
